A study of Arabidopsis thaliana with 4 samples.

Results

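Sulfate uptake, sulfate reduction and the response to sulfur shortage were followed in *A. thaliana* seedlings exposed to the microbial volatile organic compounds (mVOCs) of the bacterial phytopathogen *E. amylovora*, through 8 genes. They were chosen by name: the APS reductases APR1, APR2 and APR3, the sulfate transporters SULTR1;1 and SULTR1;2, and the sulfur deficiency genes SDI1, LSU1 and LSU2. These 8 genes were represented by 10 probes, among 29030 loci and 43603 probes on the array.

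The study grew Col0 seedlings and bacteria on separate media of 1 dish, without contact, and compared exposed with unexposed seedlings. RNA came from whole seedlings (roots and shoots), with seedlings aged 7 days and an exposure of 16 h, neither of which the sample labels give, and the control seedlings had the same genotype and media but no bacteria in their dishes. Of the 4 biological replicates, each was 1 two-colour Agilent array, with the control RNA in Cy3 and the exposed RNA in Cy5. A free-text description attached to each of the 4 arrays speaks of untreated embryonic stem cells, which goes against the organism, source, organ, agent and title given for the same arrays and against the *A. thaliana* probes that gave signal here, so it was set aside and the agent label of each channel was used. How many plants made up a sample is not given in the sources used here. No array had the dyes the other way round, so a dye effect and an effect of exposure cannot be told apart for any gene below.

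Sulfate enters root cells through high-affinity transporters of the plasma membrane and is activated to adenosine 5′-phosphosulfate (APS). APS reductase commits it to reduction, first to sulfite and then to sulfide, which is built into cysteine, while APS kinase diverts it to the sulfation of glucosinolates and other compounds. When sulfate is scarce, plants are known to raise the transcripts of these transporters, of APS reductases and of a set of marker genes that includes SDI1 and the LSU family.

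Each array held 43803 spots that were not controls, with median intensities of 344.5 to 413 in Cy3 and 394 to 460 in Cy5, and 0 spots were saturated. Replicates 1 and 2 shared slide 1 and scan 1, while replicates 3 and 4 shared slide 2 and scan 2. Values below are log2 ratios of exposed over control after background correction and loess normalization, and levels are normalized log2 intensities of the same probes in each sample, which may be compared between samples but not between genes. A gene was called where limma's moderated test of the 4 log2 ratios gave a Benjamini-Hochberg adjusted p below 0.05 over 29013 loci. Of these loci 22.7% were called, 11.7% higher and 10.9% lower in exposed seedlings. All 8 genes were well above background in both channels on 4 of 4 arrays, and none of their spots was marked as an outlier.

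Of the 8 genes, 1 was called, the sulfur deficiency gene SDI1, which fell in exposed seedlings. No gene was called higher. The median log2 ratio of the 8 genes was -0.10, against 0.00 over all loci, and 7 of the 8 means were below 0. The log2 ratio had the same sign on all arrays for 3 of the genes (SDI1, SULTR1;2 and APR2), where 41.4% of 28908 loci had. At an unadjusted p below 0.05, limma gave 5 of the genes lower and 1 higher, where 17.2% of all loci were lower and 18.3% higher. The signs of the means were not the same under another normalization: with each array only centred on its median, without loess, 6 of the 8 means were above 0.

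**Figure D1:**
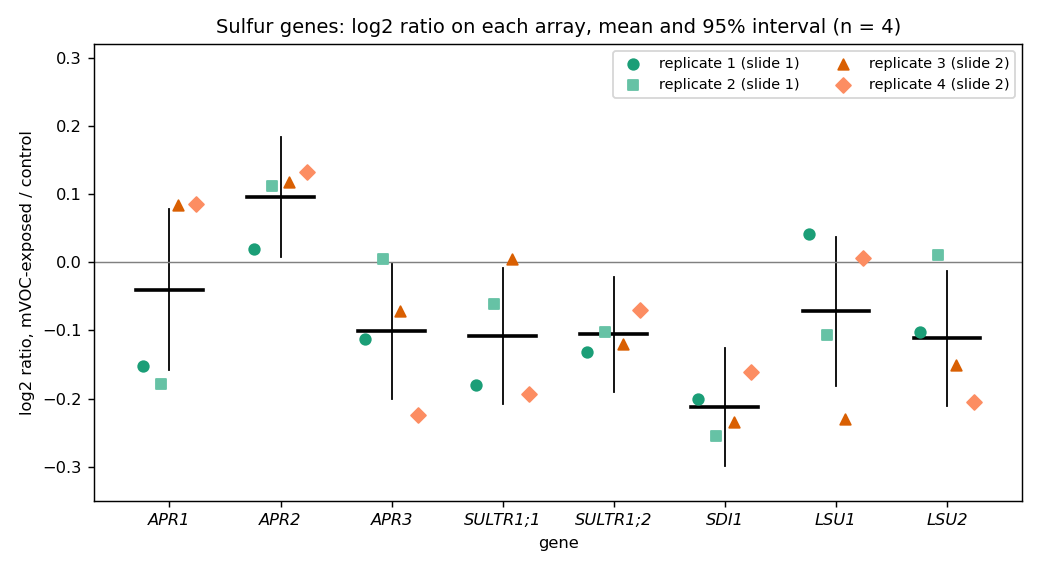
Log2 ratio of exposed over control (y axis) for the 8 genes (x axis), with 1 point per array, the mean as a horizontal bar and its 95% interval as a vertical line (n = 4). SDI1 lies below 0 on all 4 arrays, between -0.25 and -0.16, and for APR1 the arrays of slide 1 lie below 0 and those of slide 2 above it.

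SDI1 (AT5G48850) codes for a protein that is induced by sulfur deficiency and is known to restrain the synthesis of glucosinolates. Its level was 12.63, 12.68, 12.67 and 12.63 in control replicates 1 to 4. In exposed replicates 1 to 4 it was 12.43, 12.42, 12.44 and 12.47. Every exposed sample was thus below every control sample, and SDI1 was the only one of the 8 genes whose groups did not overlap, where 16.7% of 28908 loci did not. The log2 ratio was -0.20, -0.25, -0.24 and -0.16 on the arrays of replicates 1 to 4. Its mean was -0.21 ± 0.04 (SD, n = 4, 95% interval -0.30 to -0.13, limma adjusted p = 0.00373), a fold of 0.863 with an interval of 0.813 to 0.916. A log2 ratio of at least this size, in either direction, was found for 8.52% of loci. The call was held with each replicate left out in turn (-0.23 to -0.20, limma adjusted p 0.0111 to 0.0186) and on each slide alone (-0.23 and -0.20). It was lost with an ordinary test in place of limma's moderated one (adjusted p = 0.0577) and with median centring, where the mean log2 ratio was -0.06 (limma adjusted p = 0.244).

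LSU1 (AT3G49580) and LSU2 (AT5G24660) belong to a family of small proteins named for their response to low sulfur. The level of LSU1 was 10.39, 10.44, 10.51 and 10.40 in control replicates 1 to 4. It was 10.43, 10.34, 10.28 and 10.41 in the exposed ones, and the groups overlapped. Replicates 1 and 4 had log2 ratios just above 0 (0.04 and 0.01), and replicates 2 and 3 had log2 ratios of -0.11 and -0.23. The mean was -0.07 ± 0.12 (SD, n = 4, 95% interval -0.18 to 0.04, limma adjusted p = 0.327), and 0.01 with median centring. Without replicate 3 it was -0.02 (limma adjusted p = 0.821), and without replicate 1 it was -0.11 (limma adjusted p = 0.213). Of its probes, A_84_P787853 was below 0 on each array, with a mean of -0.11 (limma adjusted p = 0.103), and A_84_P169853 was above 0 in replicates 1 and 4 and below 0 in replicates 2 and 3, with a mean of -0.03 (limma adjusted p = 0.752) and scanner intensities of 122 to 147.5 in Cy3.

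For LSU2 the control levels were 13.40, 13.42, 13.60 and 13.55. The exposed levels were 13.30, 13.43, 13.45 and 13.35, so that the exposed sample was the lower one in replicates 1, 3 and 4, and the groups overlapped. Its log2 ratios of -0.10, 0.01, -0.15 and -0.21 gave a mean of -0.11 ± 0.09 (SD, n = 4, 95% interval -0.21 to -0.01, limma adjusted p = 0.0977). LSU2 crossed the threshold where replicate 2 was left out (-0.15, limma adjusted p = 0.0391) and on slide 2 alone (-0.18, limma adjusted p = 0.0262), against -0.05 on slide 1 (limma adjusted p = 0.614), and its mean was 0.08 with median centring (limma adjusted p = 0.129). The difference between the slides was not tested.

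**Figure D2:**
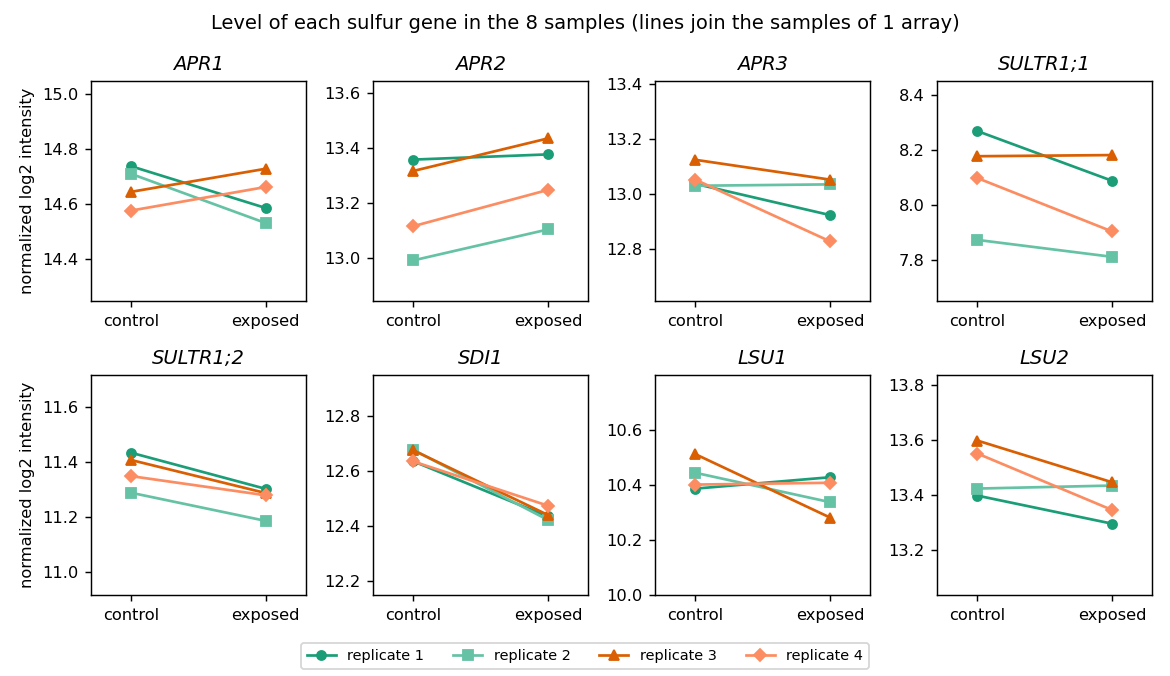
Normalized log2 intensity (y axes, each spanning the same range) of the 8 genes in the control and exposed sample of each array, with a line joining the samples of 1 array. The lines of SDI1 fall together and those of APR2 rise together, while the lines of APR1 cross.

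APR1 (AT4G04610), APR2 (AT1G62180) and APR3 (AT4G21990) code for the plastid enzymes that reduce APS to sulfite, the step at which much of the control over sulfate assimilation is known to lie. None of the 3 was called, and their means did not share a sign. APR1 had control levels of 14.74, 14.71, 14.65 and 14.58. Its exposed levels were 14.59, 14.53, 14.73 and 14.66, and the groups overlapped. The exposed sample was the lower one on both arrays of slide 1 (log2 ratios -0.15 and -0.18) and the higher one on both arrays of slide 2 (0.08 and 0.09). The mean of the 4 was -0.04 ± 0.14 (SD, n = 4, 95% interval -0.16 to 0.08, limma adjusted p = 0.631), and the slides taken alone gave -0.17 (limma adjusted p = 0.0703) and 0.08 (limma adjusted p = 0.264). With a replicate left out the mean was -0.0030 (without replicate 1), 0.01 (without replicate 2) or -0.08 (without replicate 3 or 4), and with median centring it was 0.24 (limma adjusted p = 0.00525).

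APR2, the isoform known to account for most APS reductase activity in *A. thaliana* leaves, was the only 1 of the 8 genes with a mean above 0. Its level was 13.36, 12.99, 13.32 and 13.12 in control replicates 1 to 4. In exposed replicates 1 to 4 it was 13.38, 13.10, 13.43 and 13.25. Within every array the exposed sample was the higher one, but the arrays lay further apart than the samples of 1 array, and the groups overlapped. The log2 ratios were 0.02, 0.11, 0.12 and 0.13, with a mean of 0.10 ± 0.05 (SD, n = 4, 95% interval 0.01 to 0.18, limma unadjusted p = 0.0366, adjusted p = 0.113). Median centring gave 0.28 (limma adjusted p = 0.000523), and in the other 16 alternatives the mean lay above 0 without a call.

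APR3 had control levels of 13.04, 13.03, 13.12 and 13.05. The exposed levels were 12.92, 13.04, 13.05 and 12.83, lower in replicates 1, 3 and 4 and about equal in replicate 2, and the groups overlapped. The log2 ratios of -0.11, 0.01, -0.07 and -0.22 had a mean of -0.10 ± 0.10 (SD, n = 4, 95% interval -0.20 to -0.0014, limma adjusted p = 0.136). Without replicate 4 the mean was -0.06 (limma adjusted p = 0.482), and with median centring it was 0.07 (limma adjusted p = 0.207).

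SULTR1;1 (AT4G08620) and SULTR1;2 (AT1G78000) are the high-affinity transporters that take up sulfate from the medium, at the root surface. SULTR1;1 had control levels of 8.27, 7.87, 8.18 and 8.10. The exposed levels were 8.09, 7.81, 8.18 and 7.90, and the groups overlapped, with replicate 2 the lowest in both. The log2 ratios were -0.18, -0.06, 0.00 and -0.19, with a mean of -0.11 ± 0.10 (SD, n = 4, 95% interval -0.21 to -0.01, limma adjusted p = 0.113). The scanner intensity of its probe was 213 to 323.5 in Cy3 and 215.5 to 330 in Cy5 before background correction. The ratio made by the scanner software gave -0.24 for SULTR1;1 (limma adjusted p = 0.0391), which passes the threshold.

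SULTR1;2 was below 0 on 4 of 4 arrays, with log2 ratios of -0.13, -0.10, -0.12 and -0.07. Its control levels were 11.43, 11.29, 11.41 and 11.35. Its exposed levels were 11.30, 11.19, 11.29 and 11.28, with each exposed sample below its own control but the groups overlapping. The mean was -0.11 ± 0.03 (SD, n = 4, 95% interval -0.19 to -0.02, limma adjusted p = 0.0708). Its probes differed in size. Probe A_84_P853815 had a mean of -0.16 (limma adjusted p = 0.0268, over 43550 probes, of which 23.5% were called, 12% higher and 11.4% lower) and A_84_P11438 a mean of -0.06 (limma adjusted p = 0.413). The called probe was the dimmer one, with scanner intensities of 258 to 367 in Cy3, against 16494 to 20844 for A_84_P11438. SULTR1;2 passed the threshold with the ratio of the scanner software (-0.17, limma adjusted p = 0.0080). It also passed with the deposited table of replicates 2 to 4 (-0.16, limma adjusted p = 0.0391). A further pass came with dim probes left out (-0.11, limma adjusted p = 0.0495). In that alternative both SULTR1;2 probes were kept and its mean was unchanged, while fewer loci were tested (21776). Its mean was 0.04 with median centring (limma adjusted p = 0.442). With only the brightest probe of each locus kept, its mean was -0.06 (limma adjusted p = 0.408).

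In whole seedlings, fewer cells of a type and less RNA per cell cannot be told apart. The marker counts below stand beside shares of 11.7% called higher and 10.9% called lower over all loci. Of 8 root markers, 1 was called higher (RHD2, 0.20) and 2 lower (EXPA7, -0.60, and IRT1, -0.43), and their summed level was 13770 to 14018 in control and 13262 to 14048 in exposed samples. Of 8 shoot markers 2 were higher and 2 lower, with a median log2 ratio of -0.02 and 5 of the 8 below 0. Their summed level, to which RBCS1A (0.47) adds most, was 271476 to 296114 in control and 325661 to 392909 in exposed samples. Of 8 seed storage genes, markers of the dry seed, 6 were lower and 0 higher, with a summed level of 1143 to 1207 in control and 678 to 689 in exposed samples, and 2 of the 8 were above background on all arrays. The part of these shifts in the values of the 8 sulfur genes was not tested.

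The rest of the pathway was examined in 37 further genes of sulfate uptake, assimilation and deficiency, listed with earlier results of these data known. Of these 7 were called higher and 5 lower, where 11.7% of all loci were higher and 10.9% lower, and the median log2 ratio was 0.01, against 0.00 over all loci. Of these 12 calls, those of LSU3, BGLU28 and BGLU30 were kept without the normexp offset, and that of GSH1 was kept with the ordinary test. Control and exposed levels did not overlap for 8 of the 37 genes, where 16.7% of 28908 loci had no overlap. The steps before and after APS reductase gave no called gene. ATP sulfurylase, which makes APS, had 0 of 4 genes called (APS1 to APS4, -0.10 to 0.06). Of the 4, 1 was lower at a limma unadjusted p below 0.05, where 17.2% of all loci were. The APS4 probes ran from -0.18 (A_84_P857265, limma adjusted p = 0.0126) to 0.06 (A_84_P18755, limma adjusted p = 0.448). Their scanner intensities in Cy3 were 122 to 133 and 4758.5 to 5988. Sulfite reductase, SIR, had a mean of -0.04 (limma adjusted p = 0.555).

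APS kinase, which competes with APS reductase for APS, had 3 of 4 genes higher, against the same share of 11.7% over all loci. APK2 had the largest mean of the 4, 0.31 ± 0.18 (SD, n = 4, limma adjusted p = 0.00435), with log2 ratios of 0.27, 0.10, 0.52 and 0.37. Its control and exposed levels did not overlap, where 16.7% of all loci had no overlap. APK3 rose by 0.23 ± 0.16 (SD, n = 4, limma adjusted p = 0.0136) and APK4 by 0.24 ± 0.16 (SD, n = 4, limma adjusted p = 0.0116), each highest in replicate 3, and their groups overlapped. APK4 lost the call without replicate 4 (limma adjusted p = 0.0570), and all 3 lost it on slide 1 alone. APK1 had a mean of 0.04 (limma adjusted p = 0.561).

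**Figure D3:**
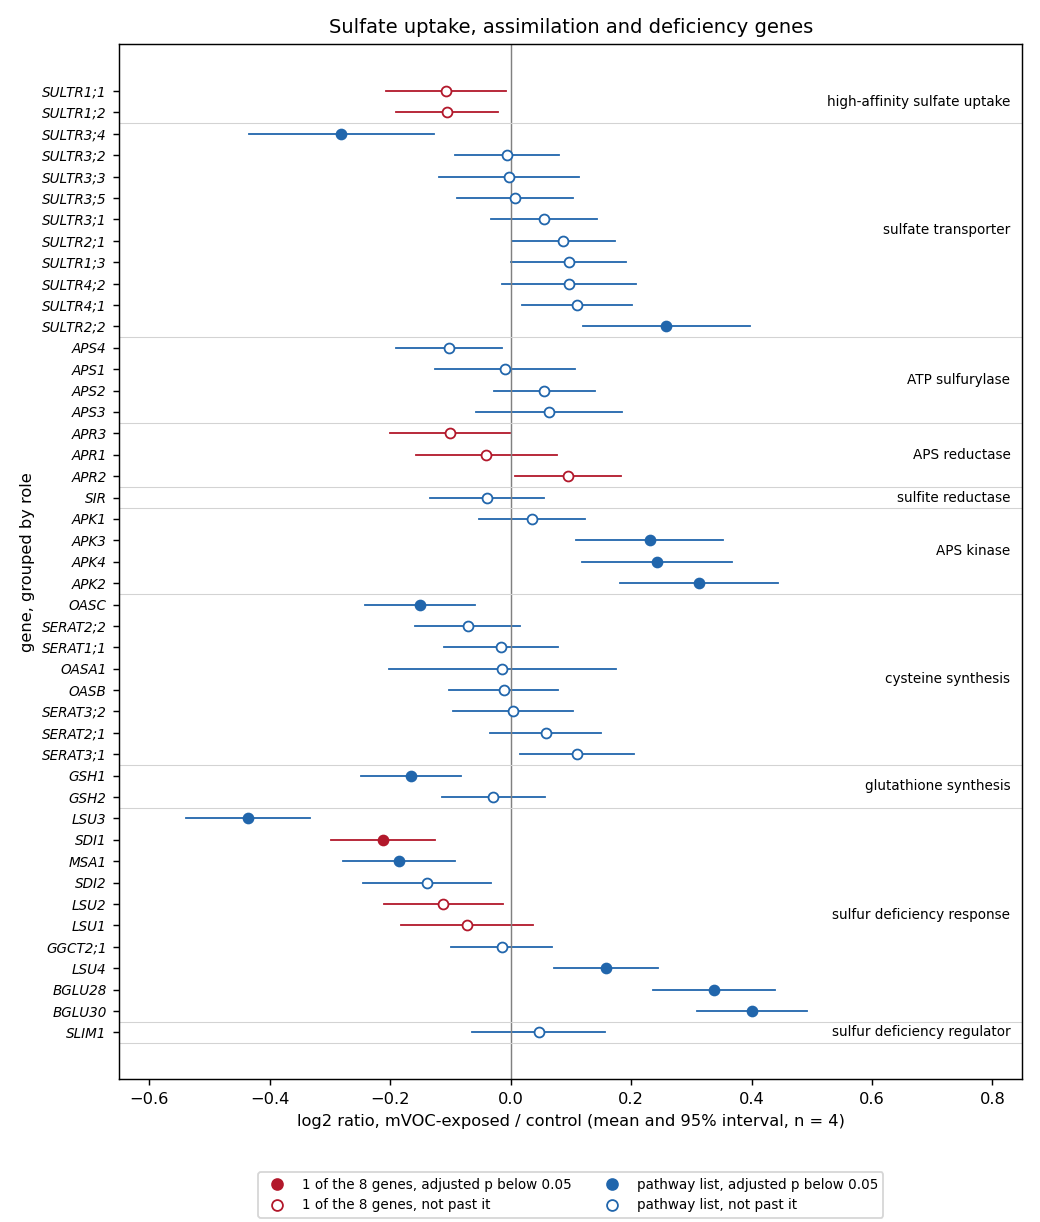
Mean log2 ratio of exposed over control (x axis, points) with its 95% interval (lines, n = 4) for the 8 genes, in red, and the 37 further genes of the pathway, in blue, grouped by role (y axis), with filled points for genes called at an adjusted p below 0.05. Filled points lie above 0 for 3 of 4 APS kinases, and on both sides of 0 among the sulfur deficiency genes, from LSU3 at -0.44 to BGLU30 at 0.40.

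Among the other sulfate transporters, 1 of 10 was higher and 1 lower, where 11.7% of all loci were higher and 10.9% lower. SULTR2;2, a low-affinity transporter of the vascular tissue, rose by 0.26 ± 0.19 (SD, n = 4, limma adjusted p = 0.0144). Its log2 ratios were 0.48 and 0.36 on slide 1 and 0.14 and 0.06 on slide 2, and without replicate 1 the call was lost (0.19, limma adjusted p = 0.0619). SULTR3;4 fell by 0.28 ± 0.22 (SD, n = 4, limma adjusted p = 0.0156), with -0.61 in replicate 2 and -0.11 to -0.21 in the others, and without replicate 2 its mean was -0.17 (limma adjusted p = 0.0240). The SULTR3;4 call was lost in 6 of 17 alternatives. Among these were the scanner software's ratio (limma adjusted p = 0.275) and the deposited table of replicates 2 to 4 (limma adjusted p = 0.356).

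In cysteine synthesis 1 of 8 genes was lower, against 10.9% of all loci, and 0 were higher, against 11.7%. The lower one was the mitochondrial cysteine synthase OASC (-0.15 ± 0.07, SD, n = 4, limma adjusted p = 0.0244). It lost the call without replicate 2, 3 or 4, and its probes gave -0.23 (A_84_P761018) and -0.07 (A_84_P162403). SERAT2;2 was not called (-0.07, limma adjusted p = 0.219), but its 3 probes were each called, in both directions, where 23.5% of all probes were called. They gave -0.15 (A_84_P849770, limma adjusted p = 0.0383), -0.22 (A_84_P815391, limma adjusted p = 0.00343) and 0.15 (A_84_P23105, limma adjusted p = 0.0253). GSH1, the first enzyme of glutathione synthesis, fell by 0.17 ± 0.01 (SD, n = 4, limma adjusted p = 0.0106), with a call lost without replicate 4 (limma adjusted p = 0.0524), while GSH2 had a mean of -0.03 (limma adjusted p = 0.636). The GSH1 probes ran from -0.28 (A_84_P11941, limma adjusted p = 0.000606) to -0.09 (A_84_P811702, limma adjusted p = 0.183). The GSH2 probes ran from -0.22 (A_84_P816633, limma adjusted p = 0.00616) to 0.11 (A_84_P12104, limma adjusted p = 0.140). With median centring OASC had a mean of 0.01 and GSH1 of 0.07.

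Genes of the sulfur deficiency response other than SDI1, LSU1 and LSU2 were called in both directions, 3 higher and 2 lower of 7. Over all loci the shares were 11.7% higher and 10.9% lower. LSU3, which the TAIR10.1 annotation places next to LSU1, had the largest fall. Its levels were 10.06, 10.03, 10.20 and 10.19 in control and 9.76, 9.54, 9.66 and 9.77 in exposed replicates 1 to 4. They did not overlap, where 16.7% of all loci had no overlap. LSU3 fell by 0.44 ± 0.11 (SD, n = 4, limma adjusted p = 0.000185). LSU4, next to LSU2 in that annotation, rose by 0.16 ± 0.04 (SD, n = 4, limma adjusted p = 0.0151), with a call that was lost without replicate 3 or 4. The LSU genes resemble each other in sequence, as the APR genes do, and whether a probe also bound the transcript of a relative was not tested.

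BGLU28 and BGLU30, beta-glucosidases that are known to be induced by sulfur shortage, rose by 0.34 ± 0.10 (SD, n = 4, limma adjusted p = 0.000733) and 0.40 ± 0.07 (SD, n = 4, limma adjusted p = 0.000149). For both, every exposed sample lay above every control sample, where 16.7% of all loci had groups without overlap in either direction. The probes of BGLU30 gave 0.58 (A_84_P20369) and 0.23 (A_84_P847302), with scanner intensities in Cy3 of 213 to 269 and 86 to 101. In the deposited table of replicates 2 to 4 BGLU30 lost its call (0.61, limma adjusted p = 0.0548). MSA1, which acts in S-adenosylmethionine supply, fell by 0.19 ± 0.07 (SD, n = 4, limma adjusted p = 0.0102), with a call lost without replicate 4 (limma adjusted p = 0.0691) and with median centring (-0.08, limma adjusted p = 0.136). Its probes gave -0.29 (A_84_P19025, limma adjusted p = 0.00174) and -0.08 (A_84_P867212, limma adjusted p = 0.356). A_84_P867212 had no value in replicate 2, so the MSA1 ratio of that replicate came from A_84_P19025 alone. SDI2, the closest relative of SDI1, was below 0 on 4 of 4 arrays with a mean of -0.14 (95% interval -0.24 to -0.03, limma adjusted p = 0.0615). SLIM1, the transcription factor known to drive much of the sulfur deficiency response, had a mean of 0.05 (95% interval -0.06 to 0.16, limma adjusted p = 0.546).

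Outside the pathway, the 3 loci whose log2 ratios on the 4 arrays lay nearest to those of SDI1 were GAPC1 (AT3G04120), a cytosolic glyceraldehyde-3-phosphate dehydrogenase, AT2G34250 and SAT32 (AT1G27760). Their root mean square differences from SDI1 over the 4 arrays were 0.0113, 0.0156 and 0.0176 on the log2 scale.

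Leaving out loess moved the means of the 8 genes further than fitting the background model on all spots, except for SULTR1;1. Of the 8, 5 (APR1, APR2, APR3, SDI1 and LSU2) were among the 10% of loci with the highest signal, a group of 2902 loci whose median log2 ratio was 0.19 with median centring and -0.01 after loess. With the background model fitted on all spots, the means of the 8 genes kept their signs, and SDI1 was at -0.21 (limma adjusted p = 0.0050).

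**Figure D4:**
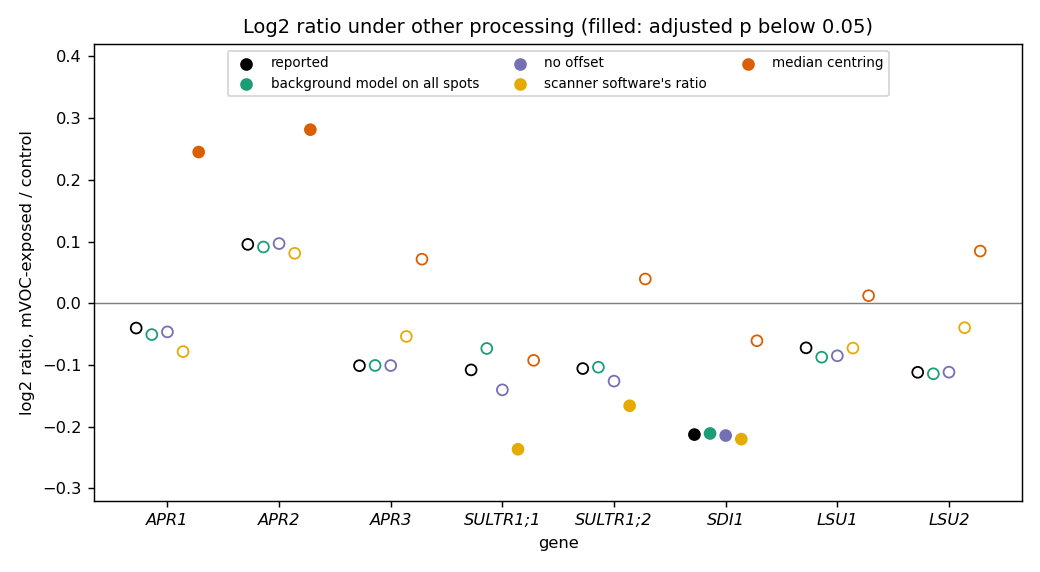
Mean log2 ratio of exposed over control (y axis) of the 8 genes (x axis) as reported and under 4 other ways of processing, with filled points where the adjusted p was below 0.05. Under median centring every gene lies higher than as reported, with APR1 at 0.24 and APR2 at 0.28, and SDI1 at -0.06 has an open point.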

How the data were processed

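The authors deposited the output of Agilent Feature Extraction for each array, which gives unnormalized median intensities of spots and of their surroundings in both channels, and the log10 ratio that the software made after background subtraction and dye normalization. They also deposited a series-wide table, in which replicates 2 to 4 equal that log10 ratio and replicate 1, a deposited value of another kind, equals the software's error of it and was left out. The paper names GeneSpring and limma, and its RNA amount for labelling is not that of the labels.

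The software used was limma 3.58.1 under R 4.3.3, with jsonlite 2.0.0 and data.table (version 1.17.8). Log2 ratios were made from the median intensities. The normexp model (offset 50) was fitted without the 112 to 194 spots per array marked for non-uniform background, which were left out. On replicate 4 such spots raised the SD of the modelled Cy3 background from 0.974 to 423. Loess was applied within each array, control and outlier spots having weight 0 there and being left out afterwards. Probes were averaged per locus, and limma's lmFit with an intercept alone and eBayes was run. Levels were taken after Aquantile. The array files give a locus for 38413 of 43603 probes, and the RefSeq table (TAIR10.1) holds 28595 of 29030 loci. Probe sequences and promoters were not used here, so a planned search for sulfur-responsive promoter motifs was not run. Gene coordinates of that annotation served only to find neighbouring genes. The steps were tested on simulated data.

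Control and exposed samples were paired by array. Once group means were removed, the samples of 1 array had r of 0.501, 0.574, 0.370 and 0.335 across probes for replicates 1 to 4, and those of different arrays -0.387 to 0.0770. The consensus correlation within slides was 0.173. The 8 genes and all lists were chosen with earlier results of these data known. Named were the 8 genes, pathway genes (those called with their values), markers, and the 3 loci nearest to the gene of the 8 whose mean was largest in absolute size (SDI1). Alternatives covered background, normalization, outlier and dim spots, probes of a locus, the variance model, pairing, slide, each replicate left out, and the deposited table.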

Additional observations from a re-analysis of the deposited data

How the results depend on the processing

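Each of 20 named genes was refitted under 17 alternatives, 340 values in all. Of these, 268 kept their direction and their side of the threshold. With the sign kept, 56 lost the call and 7 gained one, and 9 changed sign. Among the 9, with median centring, APR1 gained a call (limma adjusted p = 0.00525). OASC (limma adjusted p = 0.888) and GSH1 (limma adjusted p = 0.174) lost theirs there. Median centring changed the sign of APR1 (0.245), APR3 (0.0714), SULTR1;2 (0.0393), LSU1 (0.0123), LSU2 (0.0846), OASC (0.00778) and GSH1 (0.0697), and APR1 also changed sign on slide 2 alone (0.0849) and when a replicate was left out (-0.0822 to 0.00599, the latter without replicate 2). Every such alternative moved the median of all loci by under 0.1. Loess and median centring both set that median close to 0, so it does not bear on the sign changes of single genes. Of the 8 genes, median centring called 2 higher and 0 lower, the ordinary test 0 lower, the scanner software's ratio 3 lower, and 2 were lower with dim probes left out, on slide 2 alone and in the deposited table, with 1 to 2 lower when a replicate was left out. Of the 37 pathway genes, 14 were higher and 9 lower with the scanner software's ratio, 2 and 1 without an offset, 22 and 2 with median centring, 1 and 1 with the ordinary test and 3 and 2 on slide 1 alone, with 5 to 7 higher and 2 to 5 lower when a replicate was left out. Without the pairing (no replicate block) 5 were higher and 1 was lower. Of all loci, 939 were higher and 951 lower without an offset, 7904 and 7526 with median centring, and 290 and 311 with the ordinary test. The counts were 1526 and 1370 with no replicate block, 1695 and 1424 on slide 1 alone, and 2160 and 2245 in the deposited table. When a replicate was left out, 1625 to 3253 loci were higher and 1502 to 2896 lower. Except for what the construction of an alternative sets (fewer arrays or no moderation), the cause was not tested. With 4 arrays, precision is limited for all genes.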
